A study of Mus musculus with 47 samples.

Results

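The genes described here are 33 mouse genes of sterol and fatty acid synthesis, chosen by gene symbol as the enzymes, SREBP regulators and sterol carrier of that pathway. They were followed in bulk RNA-sequencing (RNA-seq) of the hypothalamus after 1 dose of fibroblast growth factor 1 (FGF1) or vehicle, injected into the cerebral ventricles (icv). Of the 33 symbols, 32 had a row in the table of 14221 genes, and Tm7sf2, a sterol reductase, had none. The 32 genes were described in 4 groups by role, with 9 upstream of squalene, 10 between squalene and cholesterol, 6 for SREBP regulation and sterol transfer, and 7 for fatty acid synthesis.

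The table held 47 libraries, each from 1 male ob/ob mouse aged 11 weeks. These mice lack functional leptin, so all groups, controls included, share obesity and the absence of leptin. FGF1 was given at 3 µg, and the comparison of FGF1 with vehicle on each of 3 days asked how the hypothalamic transcriptome changed after the injection. By the labels, all vehicle mice were pair fed to the FGF1 mice. The paper's methods describe pair feeding only up to Day 5, so matched intake is not stated for the rest of the time to Day 42.
On Day 1 after injection there were 10 FGF1 mice and 4 vehicle mice labelled Non-Diabetic. On Day 5 there were 9 FGF1 mice, 7 vehicle mice labelled Non-Diabetic and 7 vehicle mice labelled Diabetic. On Day 42 there were 5 FGF1 mice and 5 vehicle mice labelled Non-Diabetic. All 47 mice carried the same strain label, and the labels give no glucose values behind the words Diabetic and Non-Diabetic.

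Cholesterol hardly crosses the blood-brain barrier, so the brain makes its own. Acetyl-CoA is built into mevalonate, then into isoprenoids and squalene, and squalene is closed into lanosterol and trimmed to cholesterol. The transcription factor SREBP2 (encoded by Srebf2) drives most of these genes when sterols in the endoplasmic reticulum are low, and SREBP1 (Srebf1) drives fatty acid synthesis. The escort protein SCAP carries both factors to the Golgi for cleavage, and the INSIG proteins hold SCAP back when sterols are plentiful. In the brain, oligodendrocytes use much of this lipid for myelin, and astrocytes supply cholesterol to neurons.

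Total raw counts per library ranged from 1243280 to 47082403 on Day 1, from 7579695 to 30009258 on Day 5, and from 19416026 to 43934003 on Day 42. The smallest total belonged to FGF1 replicate 1 of Day 1. On Day 5, FGF1 replicates 8 and 9 had totals of 30009258 and 27922117, and no vehicle library exceeded 12451642. Each day carried a single preparation code that no other day shared, so day and preparation cannot be told apart. Each comparison of FGF1 with vehicle lay within 1 preparation. All 6 genes fixed as hypothalamic neuron markers were present, and 0 of 4 liver or fat marker genes had a row. Levels are given as CPM scaled by the trimmed mean of M values (normalized CPM), which corrects a count for the size of its library. In bulk tissue, fewer cells of a type and less RNA per cell cannot be told apart.

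Promoter sequences are shown for 4 of the 9 genes called on both Day 1 and Day 5, because SREBP and its partner factors act there. Msmo1, which had the largest Day 1 change of the 32 genes, is not shown. The RefSeq table (GRCm38.p6) held the window from 250 bases before to 50 bases after the start for 26 of the 32 genes, and Fdps, Fdft1, Sqle, Stard4, Scd1 and Scd2 had no entry in it. The 4 stretches below lie just before the annotated gene, 5′ to 3′ on the gene's own strand, and leave out any base inside a GENCODE exon. Hmgcs1, Cyp51 and Acly rose on Day 1 and fell on Day 5, and Insig1 fell on both days. The Day 1 call of Hmgcs1 was lost under 8 of 14 alternatives. Capitals mark the sterol regulatory element in the form TCACNCCAC, the CCAAT box of the factor NF-Y and the Sp1 box GGGCGG. On the other strand CCAAT reads as ATTGG and GGGCGG as CCGCCC. Other forms of the sterol regulatory element were not searched.
Hmgcs1, chr13:119690101-119690350, plus strand: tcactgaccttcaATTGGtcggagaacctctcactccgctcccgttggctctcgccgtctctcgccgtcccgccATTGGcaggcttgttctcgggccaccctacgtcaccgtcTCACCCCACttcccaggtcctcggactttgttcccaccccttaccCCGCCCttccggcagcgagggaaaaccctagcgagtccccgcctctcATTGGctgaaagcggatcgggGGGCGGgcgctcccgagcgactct
Cyp51, chr5:4104747-4104947, minus strand: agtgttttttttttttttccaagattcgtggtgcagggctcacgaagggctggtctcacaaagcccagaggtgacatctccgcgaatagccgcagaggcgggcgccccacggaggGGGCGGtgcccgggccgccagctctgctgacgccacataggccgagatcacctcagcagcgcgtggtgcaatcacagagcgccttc
Acly, chr11:100528001-100528250, minus strand: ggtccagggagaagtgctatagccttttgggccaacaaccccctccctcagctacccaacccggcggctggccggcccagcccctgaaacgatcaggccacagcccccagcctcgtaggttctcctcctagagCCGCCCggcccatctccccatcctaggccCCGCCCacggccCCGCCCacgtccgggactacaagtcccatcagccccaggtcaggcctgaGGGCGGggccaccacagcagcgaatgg
Insig1, chr5:28071162-28071362, plus strand: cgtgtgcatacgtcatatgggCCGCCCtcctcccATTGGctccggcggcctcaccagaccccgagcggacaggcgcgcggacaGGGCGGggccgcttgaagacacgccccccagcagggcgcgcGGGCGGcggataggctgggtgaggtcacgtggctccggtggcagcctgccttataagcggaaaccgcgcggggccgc
The Hmgcs1 stretch held 1 sterol regulatory element, 3 CCAAT and 2 GGGCGG. Cyp51 held 1 GGGCGG, Acly 4 GGGCGG, and Insig1 1 CCAAT and 3 GGGCGG. The sterol regulatory element in the form TCACNCCAC, searched on both strands of the 300-base window, was in 1 of the 26 promoters. It was in 1.2% of all 27025 promoters. That match was in Hmgcs1, 137 bases before the start. CCAAT was in 20 of 26 against 37.9% of all promoters, and GGGCGG was in 19 of 26 against 35.9%. The E-box CANNTG was in 19 of 26 against 72.1%. These matches are descriptions of letters in the window and were not tested.

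In GENCODE vM21 (GRCm38) the whole genes lay at chr13:119690379-119708260 on the plus strand for Hmgcs1, chr5:4081145-4104746 on the minus strand for Cyp51, chr11:100476353-100528000 on the minus strand for Acly and chr5:28071363-28078662 on the plus strand for Insig1. Exons of 13 of the 32 genes overlapped exons of another annotated gene, 4 of them on the same strand. Fdft1 shared 774 exon bases with Ctsb on the other strand, Cyp51 shared 166 with Akap9, and Fdps shared 1124 bases with Gm43738 on its own strand. How the counting treated strand and overlap is not given in the sources used here, so the values of Fdps in particular are uncertain.

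Levels differed widely among the 32 genes. Per kilobase of exon, in the 7 vehicle mice of Day 5 labelled Non-Diabetic, Scd2 stood first at 359.6 ± 16.9 normalized CPM per kb (SD, n = 7). Scd2 and Scd1 are stearoyl-CoA desaturases, which place the double bond of oleate, and Scd2 is the main form in brain. Scd1 followed at 70.1 ± 4.83. Acly, which cleaves citrate into cytosolic acetyl-CoA, stood at 63.2 ± 1.99 and Hmgcs1, the cytosolic HMG-CoA synthase, at 52.5 ± 2.06, without overlap between them. The lowest levels per kb were 3.09 ± 0.206 for Dhcr7, the reductase of the last sterol step, and 1.07 ± 0.24 for Fdps, the farnesyl diphosphate synthase. In this Day 5 order the ranges of 25 of the 31 pairs of neighbours overlapped, so most neighbouring ranks were not apart beyond the spread between mice. Scd2 did not overlap Scd1, and Fdps did not overlap Dhcr7. Scd2 was first, Scd1 second and Fdps last on each of the 3 days, while the ranks between them changed with the day. Hmgcs1, for example, lay above Acly on Days 1 and 42.

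**Figure D1:**
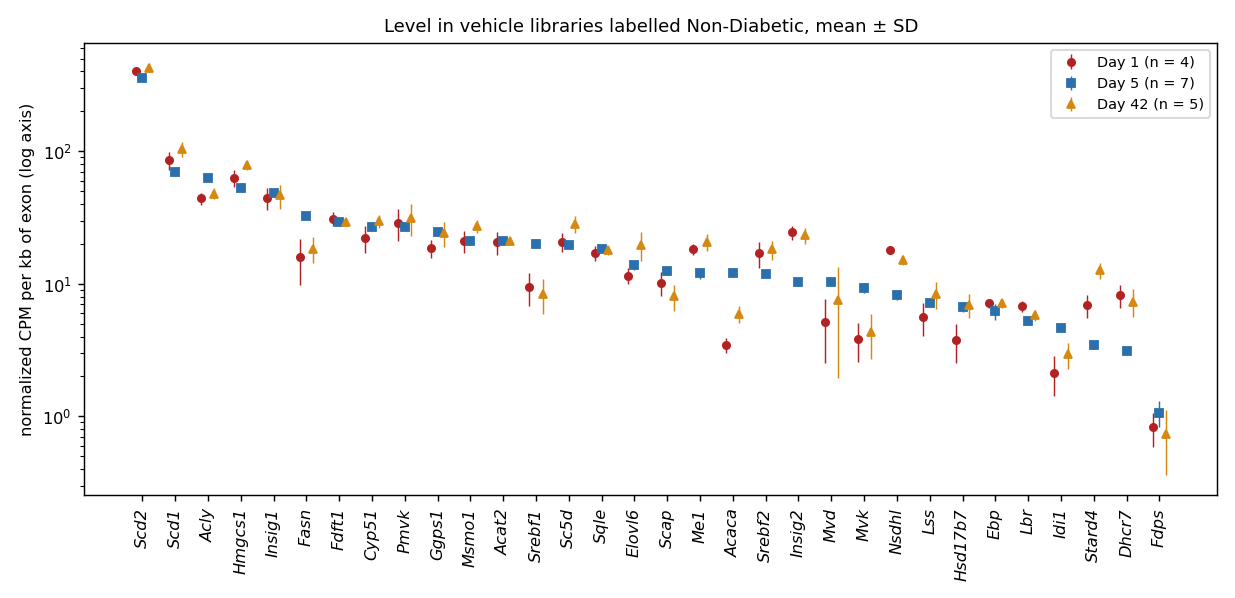
Normalized CPM per kb of exon (log axis) for the 32 genes in the vehicle mice labelled Non-Diabetic, as mean ± SD for Days 1, 5 and 42. Genes are in the order of their Day 5 means, where Scd2 leads at 359.6 and Fdps is last at 1.07.

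The vehicle mice themselves differed between days. The ratio of the largest to the smallest daily mean was over 2 for 10 of the 32 genes, with a median ratio of 1.49. Stard4, a carrier that moves cholesterol between membranes, averaged 38.4, 19.4 and 70.7 normalized CPM in vehicle mice on Days 1, 5 and 42. Acaca, the acetyl-CoA carboxylase, averaged 59.2, 204 and 102 normalized CPM on the same days. Because day and preparation cannot be told apart, FGF1 mice were compared with vehicle mice of the same day.

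On Day 1, FGF1 raised 12 of the 32 genes and lowered 5 at an adjusted p under 0.05 (edgeR quasi-likelihood test, Benjamini-Hochberg over 14221 genes). Over all genes tested, 23.4% were higher and 21.6% were lower, so the share that rose was above that background and the share that fell was below it. The median log2 fold change (log2 FC) was 0.19 for the 32 genes and 0.0067 for all genes. Of the 12 genes that rose, 6 lie between squalene and cholesterol, where 6 of 10 rose and 1 fell. With an absolute log2 FC above 0.5 as well, only Msmo1 was higher and only Fdps was lower, against 11.5% and 8.05% of all genes. DESeq2 called 9 higher and 5 lower, without Hmgcs1, Stard4 and Elovl6, against 20.2% and 26.4% of all genes. With Day 1 fitted alone 13 of the 17 calls were made, without Hmgcs1, Hsd17b7, Sc5d and Stard4, and 17.6% of all genes were higher and 15.8% lower.

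**Figure D2:**
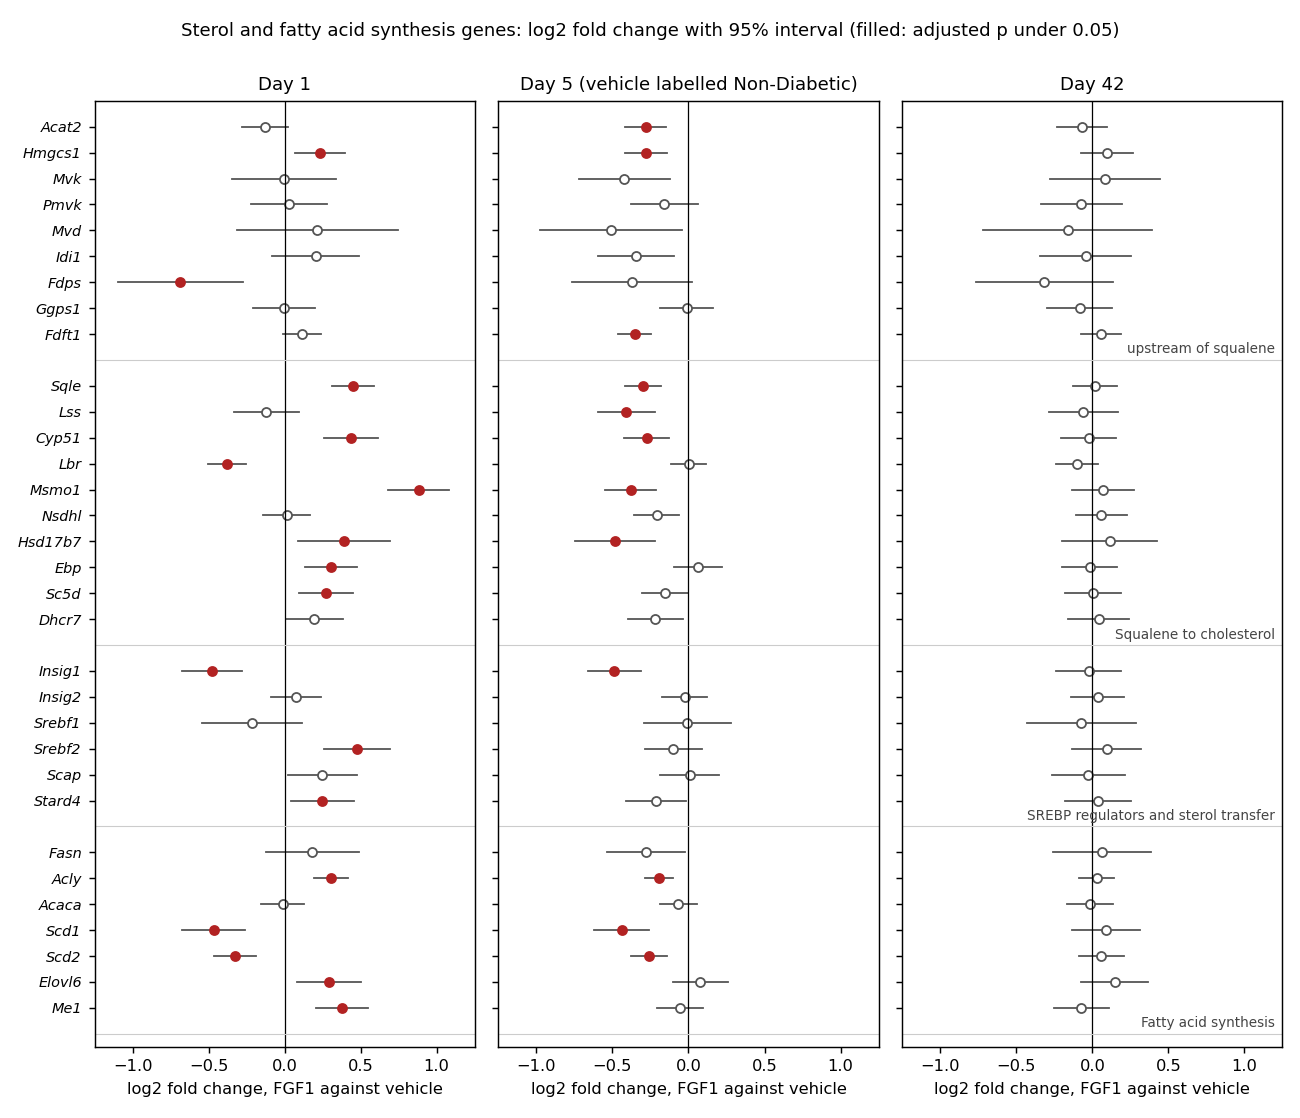
Log2 FC of FGF1 against vehicle labelled Non-Diabetic with 95% interval for each of the 32 genes by role, on Days 1, 5 and 42; filled points passed an adjusted p of 0.05. On Day 1, 12 filled points lie above 0 and 5 below, on Day 5 all 12 filled points lie below 0, and Day 42 has 0 filled points.

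Upstream of squalene, 1 of 9 genes rose and 1 fell on Day 1. Hmgcs1 makes the precursor of mevalonate. It measured 255, 274, 351 and 277 normalized CPM in the 4 vehicle mice and 273 to 409 with a median of 322 in the 10 FGF1 mice. The groups overlapped, and the highest vehicle mouse lay above the FGF1 median. Its log2 FC was 0.23 ± 0.081 (SE, adjusted p = 0.016), and the exact permutation test of the 2 groups alone gave p = 0.0659. The call was lost under 8 of 14 alternatives, among them DESeq2, and without vehicle replicate 1 or 2, at an adjusted p of 0.0673 to 0.102 by edgeR. Fdps, which joins isoprene units into farnesyl diphosphate, measured 2.75, 2.63, 3.72 and 4.79 in vehicle mice and 1.45 to 3.28 with a median of 1.98 in FGF1 mice. The groups overlapped, Fdps fell, and its log2 FC was -0.69 ± 0.20 (adjusted p = 0.00528 by edgeR). Its lowest raw count was 2, and without vehicle replicate 4 its adjusted p was 0.0653. Fdft1, the squalene synthase that commits the pathway to sterols, ran from 120.2 to 157 in FGF1 mice and measured 119.6, 129, 153 and 122 in vehicle mice. These groups overlapped and its log2 FC of 0.11 ± 0.062 did not pass (adjusted p = 0.13 by edgeR). Mvd, the mevalonate diphosphate decarboxylase, measured 7.47, 3.67, 13.5 and 13.5 in vehicle mice and 6.65 to 15.5 with a median of 10.4 in FGF1 mice. Its vehicle values spread at least as widely as its FGF1 values, and its log2 FC was 0.21 ± 0.26 (adjusted p = 0.531 by edgeR). The other 5 genes of the group, Acat2, Mvk, Pmvk, Idi1 and Ggps1, had log2 FC between -0.13 and 0.20, and none passed.

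Between squalene and cholesterol the Day 1 rise was largest for Msmo1, the methylsterol monooxygenase, which acts on methyl groups of sterols made from lanosterol. Msmo1 measured 110.4, 129, 163 and 114 normalized CPM in vehicle mice and 177 to 314 with a median of 233 in FGF1 mice. Every FGF1 mouse lay above every vehicle mouse. The rise was 84.4%, a log2 FC of 0.88 ± 0.10 (adjusted p = 6.48e-10 by edgeR), and the exact permutation p was 0.002, the smallest that 10 against 4 mice can give. Sqle, the squalene monooxygenase and a rate-limiting step, measured 85.6, 91.7, 113 and 89.2 in vehicle mice and 103 to 147 with a median of 131 in FGF1 mice. Of the vehicle mice, 3 lay below every FGF1 mouse and replicate 3 lay among them. Sqle rose by 0.45 ± 0.069 in log2 FC (adjusted p = 5.58e-07 by edgeR). Cyp51, the lanosterol demethylase, measured 82.6, 98.5, 131 and 80.8 in vehicle mice and 111 to 162 with a median of 129 in FGF1 mice. Again 3 vehicle mice lay below every FGF1 mouse and replicate 3 did not, and the log2 FC was 0.44 ± 0.087 (adjusted p = 6.31e-05 by edgeR). With Day 1 fitted alone the adjusted p by edgeR was larger, at 9.04e-05 for Msmo1, 0.00166 for Sqle and 0.01 for Cyp51.

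Hsd17b7, the ketosteroid reductase of the demethylation in which Msmo1 acts, measured 14, 17.8, 28.4 and 17.0 normalized CPM in vehicle mice. In FGF1 mice it ran from 19.9 to 33 with a median of 23.4. Vehicle replicate 3 lay within the FGF1 range and the others below it. Its log2 FC was 0.39 ± 0.15 (adjusted p = 0.0291 by edgeR). Sc5d, the sterol desaturase, measured 84.5, 114, 116 and 88.3 in vehicle mice and 102 to 148 with a median of 119.7 in FGF1 mice. Here 2 vehicle mice lay below every FGF1 mouse and 2 within, and the log2 FC was 0.27 ± 0.088 (adjusted p = 0.00942 by edgeR). Ebp, the sterol isomerase, rose by 0.31 ± 0.085 (adjusted p = 0.00292 by edgeR), with FGF1 mice from 16.3 to 22.7 and vehicle mice at 17.8, 16.5, 16.6 and 15.0. The Ebp call was lost with limma after quantile normalization. Over the 14 alternatives its log2 FC ran from 0.16 to 0.73. The calls of Hsd17b7 and Sc5d depended on single vehicle mice. Without vehicle replicate 1, 2 or 4 the adjusted p of Hsd17b7 by edgeR was 0.0942 to 0.181, and without replicate 1 or 4 that of Sc5d was 0.0624 to 0.0869.

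Lbr moved the other way. It encodes the lamin B receptor of the nuclear envelope, which also carries sterol reductase activity. Lbr measured 30.8, 36.8, 30.4 and 30.4 normalized CPM in vehicle mice and 22.2 to 28.2 with a median of 24.5 in FGF1 mice. Every FGF1 mouse lay below every vehicle mouse, and the log2 FC was -0.38 ± 0.062 (adjusted p = 2.77e-06 by edgeR). Lss, Nsdhl and Dhcr7, the lanosterol synthase, a sterol dehydrogenase and the reductase of the last step, had log2 FC of -0.12, 0.01 and 0.20, and none passed.

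Among the regulators, 2 of 6 rose and 1 fell on Day 1. Srebf2 measured 134, 83.5, 123 and 147 normalized CPM in vehicle mice and 127 to 207 with a median of 172 in FGF1 mice. The groups overlapped, with 2 vehicle mice inside the FGF1 range, and the log2 FC was 0.47 ± 0.11 (adjusted p = 0.000359 by edgeR). Stard4 measured 32.2, 38.6, 49.2 and 33.6 in vehicle mice and 36.4 to 60.0 with a median of 46.4 in FGF1 mice, also with 2 vehicle mice inside the FGF1 range. Its log2 FC of 0.25 ± 0.10 passed narrowly (adjusted p = 0.0475 by edgeR) and was lost without vehicle replicate 1, 2 or 4, at 0.0937 to 0.222. Insig1, itself a target of SREBP in other tissues, fell. It measured 111, 131, 172 and 135 in vehicle mice and 86.5 to 123 with a median of 96.3 in FGF1 mice. Only vehicle replicate 1 lay within the FGF1 range and the other 3 lay above it, with a log2 FC of -0.48 ± 0.098 (adjusted p = 9.35e-05 by edgeR). Insig2, Srebf1 and Scap had log2 FC of 0.08, -0.21 and 0.25, and none passed.

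In fatty acid synthesis, 3 of 7 genes rose and 2 fell on Day 1. Acly measured 236, 201, 234 and 260.1 normalized CPM in vehicle mice and 262 to 305 with a median of 290.2 in FGF1 mice. The groups did not overlap, and the log2 FC was 0.30 ± 0.056 (adjusted p = 1.57e-05 by edgeR). Me1, the malic enzyme that supplies NADPH, measured 69.0, 80.3, 67.0 and 65.6 in vehicle mice and 77.4 to 104 with a median of 93.6 in FGF1 mice. Only vehicle replicate 2 reached into the FGF1 range, and the log2 FC was 0.38 ± 0.086 (adjusted p = 0.00034 by edgeR). Elovl6, the elongase of palmitate, rose by 0.29 ± 0.10 (adjusted p = 0.0205 by edgeR), which was lost without vehicle replicate 1 or 4 at 0.0906 to 0.099.

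The desaturases fell. Scd1 measured 366, 515, 406 and 395 normalized CPM in vehicle mice and 229.6 to 384 with a median of 304 in FGF1 mice, with vehicle replicate 1 inside the FGF1 range. Its log2 FC was -0.47 ± 0.10 (adjusted p = 0.000225 by edgeR). Scd2 measured 2024, 2339, 2206 and 2192 in vehicle mice and 1451 to 1959 with a median of 1772 in FGF1 mice. The groups of Scd2 did not overlap, and the log2 FC was -0.33 ± 0.067 (adjusted p = 9.76e-05 by edgeR). Fasn, the fatty acid synthase, and Acaca had log2 FC of 0.18 and -0.01, and neither passed.

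**Figure D3:**
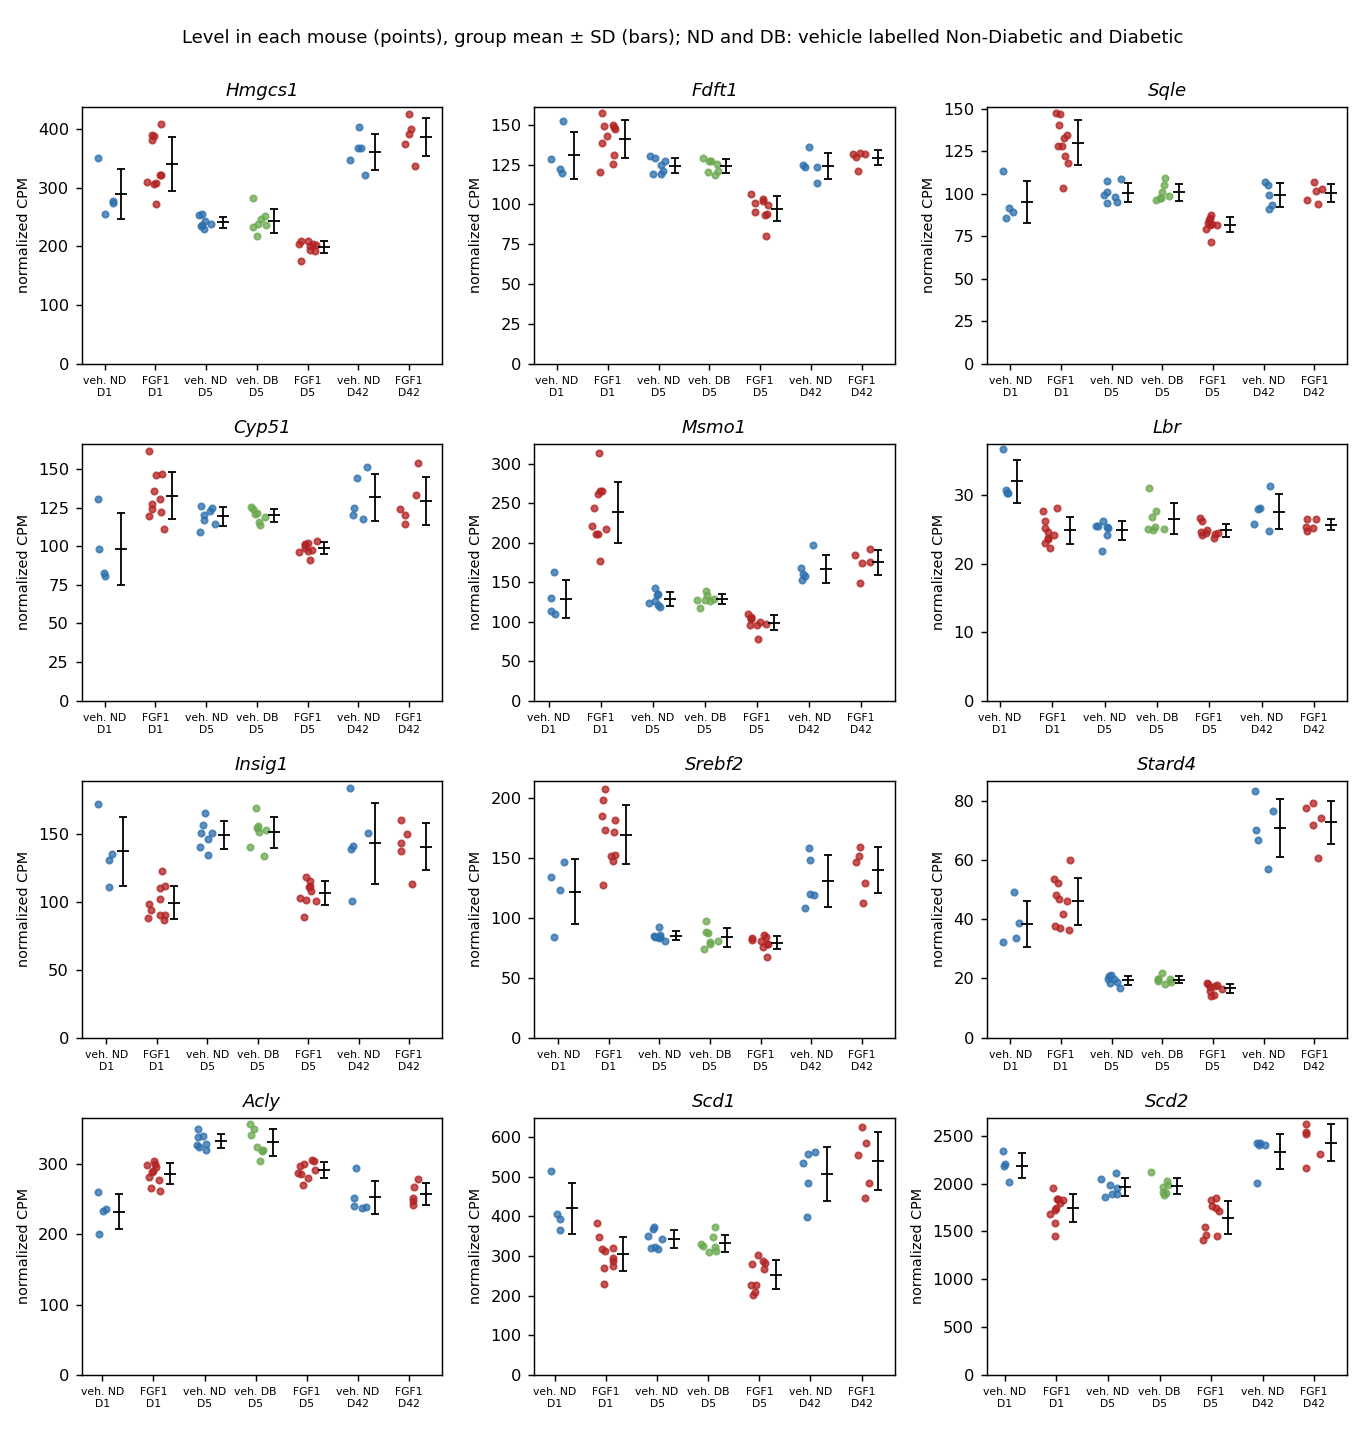
Normalized CPM of 12 genes in each of the 47 mice, by treatment and day, with the mean ± SD of each of the 7 groups. Msmo1 in the 10 FGF1 mice of Day 1 runs from 177 to 314, above all 4 vehicle mice, and on Day 5 its 9 FGF1 mice lie at or below 109.7, under both vehicle groups.

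Across the 32 genes on Day 1, all FGF1 mice lay above all vehicle mice for 2 genes, Msmo1 and Acly, against 7.56% of all genes. All lay below for Lbr and Scd2, against 6.81%. Vehicle replicate 3 was the highest of the 4 vehicle mice for Hmgcs1, Fdft1, Sqle, Cyp51, Msmo1, Hsd17b7, Sc5d, Insig1 and Stard4. Without it 15 genes rose, against 22.4% of all genes. Without vehicle replicate 1, 8 of the 32 rose, against 21.1%, which is near that background. Of the 17 calls, 11 held when each vehicle mouse was left out in turn. By the exact permutation test, Hmgcs1, Hsd17b7 and Stard4 had p of 0.0659, 0.0599 and 0.102. Markers of several cell types moved on Day 1 as well. Of 4 ependymal markers 3 were lower, with a median log2 FC of -1.14 and a summed level of 15.97 to 29.9 normalized CPM in FGF1 mice and 35.1 to 50.4 in vehicle mice. Of 7 mature oligodendrocyte markers 6 were lower, with sums of 2265 to 4168 and 3632 to 5317. Of 6 markers of oligodendrocyte precursors and newly formed oligodendrocytes 3 were lower, with sums of 110.3 to 161 and 178 to 196. Of the 3 tanycyte markers measured, 2 were lower, with sums of 42.4 to 77.2 and 74.4 to 117. Of 4 neuron markers 3 were lower, with sums of 2073 to 2797 and 3029 to 3826. Of 6 hypothalamic neuron markers Pomc was higher and Pmch lower, with sums of 570.1 to 1007 and 958 to 1364. Of 6 astrocyte markers 2 were higher and 4 lower, with sums of 4612 to 5617 and 4193 to 4835. Of 4 microglia markers 3 were higher and 1 lower, with sums of 118 to 165 and 97.6 to 118. Of 4 markers of meningeal fibroblasts 2 were higher, with sums of 49.7 to 340.2 and 71.8 to 130.5, and of 4 endothelial markers 1 was higher, with sums of 126 to 161 and 93.0 to 133. None of these markers was at 0 in any library. Their part in the result was not tested.

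On Day 5 the direction was different, and 0 of the 32 genes were higher and 12 were lower in FGF1 mice than in vehicle mice labelled Non-Diabetic (edgeR, adjusted p under 0.05). Over all genes, 3.25% were higher and 1.4% were lower. The lowered genes were Acat2, Hmgcs1, Fdft1, Sqle, Lss, Cyp51, Msmo1, Hsd17b7, Insig1, Acly, Scd1 and Scd2. At an unadjusted p under 0.05 there were 0 higher and 20 lower, against 9.56% and 6.95% of all genes, and other tools also called 0 higher, against 3.27% of all genes with DESeq2, 4.59% with limma after quantile normalization and 12.5% with limma and sample weights. DESeq2 called 12 lower, against 1.57% of all genes, and these limma fits 16 and 20, against 3.03% and 11.6%. The log2 FC was negative for 28 of 32 genes, with a median of -0.24 against -0.0064 for all genes. With an absolute log2 FC above 0.5 as well 0 were higher and 0 were lower, against 1.31% and 0.232%.

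Against the vehicle mice labelled Diabetic, 0 genes were higher and 16 were lower by edgeR, where 5.79% and 3.42% of all genes were. At an unadjusted p under 0.05 there were 0 higher and 20 lower, against 12% and 9.77% of all genes, and DESeq2 called 0 higher and 17 lower, against 5.68% and 3.74%. The median log2 FC was -0.27 there and -0.0071 for all genes. With an absolute log2 FC above 0.5 as well, 0 were higher and 2 were lower, Idi1 and Insig1, against 2.36% and 0.499%. Both comparisons use the same 9 FGF1 mice, so their values are given side by side and are not independent of each other. For 16 genes every FGF1 mouse lay below every vehicle mouse labelled Non-Diabetic, against 1.55% of all genes, and 0 lay above, against 2.38%. Against the mice labelled Diabetic there were also 16 below and 0 above, against 2.45% and 3.63%, with Nsdhl in place of Acly.

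**Figure D4:**
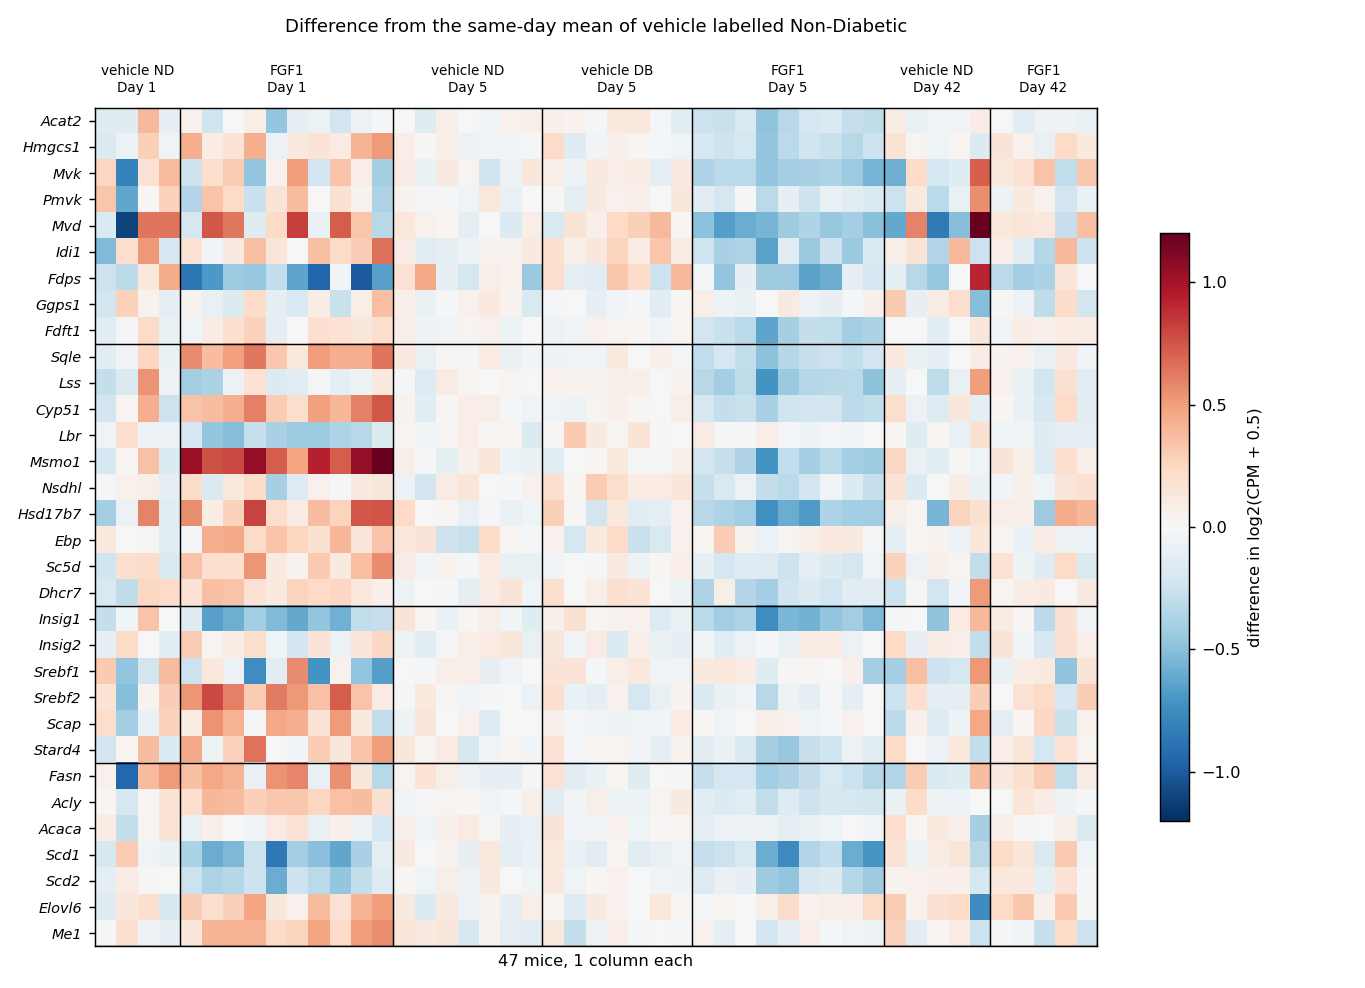
Log2 difference of each of the 47 mice from the mean of the vehicle mice labelled Non-Diabetic of the same day, for the 32 genes by role, on a colour scale from -1.2 to 1.2. FGF1 mice of Day 1 mix higher and lower genes, those of Day 5 are lower for 28 of 32 genes in the fitted log2 FC, and those of Day 42 split into 17 positive and 15 negative.

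Upstream of squalene, all 9 log2 FC were negative on Day 5 against the vehicle mice labelled Non-Diabetic, and 3 genes fell. Against those labelled Diabetic 8 were negative and 1 was positive, and 5 fell. Hmgcs1 ran from 175 to 209.6 with a median of 203 normalized CPM in FGF1 mice, from 229.7 to 255 with a median of 238 in vehicle mice labelled Non-Diabetic, and from 218 to 282 with a median of 238 in those labelled Diabetic. The FGF1 mice lay below all 14 vehicle mice. Hmgcs1 fell by 17.7%, a log2 FC of -0.28 ± 0.068 (adjusted p = 0.0075 by edgeR). Against the mice labelled Diabetic its log2 FC was -0.29 ± 0.068. Fdft1 ran from 79.9 to 107 with a median of 99.4 in FGF1 mice, from 119 to 131 with a median of 125 in the first vehicle group and from 118 to 129 with a median of 125 in the second. The groups were again apart, and the log2 FC was -0.36 ± 0.054 (adjusted p = 8.93e-06 by edgeR), the smallest adjusted p of the 32 genes on that day. Acat2, the thiolase that makes acetoacetyl-CoA, fell by 17.7% (log2 FC -0.28 ± 0.067, adjusted p = 0.00611 by edgeR).

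Mvd had the largest negative log2 FC of the group on Day 5 but did not pass. It ran from 11.9 to 14.8 with a median of 13.5 normalized CPM in FGF1 mice, from 17.1 to 20.9 with a median of 19.5 in vehicle mice labelled Non-Diabetic and from 16.8 to 25.3 with a median of 21.5 in those labelled Diabetic. All FGF1 mice lay below all vehicle mice, and the log2 FC was -0.51 ± 0.23 with a 95% interval of -0.98 to -0.04 (adjusted p = 0.246 by edgeR). Its fit shares the spread of all 47 libraries, and Mvd varied more on the other days, from 6.26 to 31.1 in vehicle mice of Day 42. With Day 5 fitted alone, 21 of the 32 genes were lower, the 12 above and Mvk, Pmvk, Mvd, Idi1, Nsdhl, Sc5d, Dhcr7, Stard4 and Fasn. In that fit 9.13% of all genes were lower and 11.8% higher. Fdps ran from 2.63 to 4.34 with a median of 3.14 in FGF1 mice and from 3.10 to 6.25 with a median of 4.6 in vehicle mice labelled Non-Diabetic, and its log2 FC of -0.37 ± 0.20 did not pass. Ggps1, the geranylgeranyl diphosphate synthase, showed little difference, at -0.01 with a 95% interval of -0.18 to 0.16.

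Between squalene and cholesterol, 5 of 10 genes fell against the vehicle mice labelled Non-Diabetic and 7 against those labelled Diabetic. Sqle ran from 71.4 to 87.4 with a median of 81.8 normalized CPM in FGF1 mice, from 94.4 to 109 with a median of 99.0 in vehicle mice labelled Non-Diabetic and from 96.1 to 109 with a median of 98.7 in those labelled Diabetic. All FGF1 mice were below both vehicle groups, and the log2 FC was -0.30 ± 0.058 (adjusted p = 0.00054 by edgeR). Msmo1 ran from 78.0 to 109.7 with a median of 99.96 in FGF1 mice, from 118 to 142 with a median of 126 in the first vehicle group and from 118 to 139 with a median of 128 in the second. It was also apart from both, and fell by 23.2% (log2 FC -0.38 ± 0.083, adjusted p = 0.00224 by edgeR). Cyp51 ran from 91.1 to 103 with a median of 98.8 in FGF1 mice, from 109 to 126 with a median of 120.4 in the first and from 114 to 125 with a median of 121 in the second vehicle group. The FGF1 mice were again the lowest, with a log2 FC of -0.27 ± 0.074 (adjusted p = 0.0192 by edgeR). The Cyp51 call was lost without the 2 Day 5 FGF1 libraries of highest total. It was also lost with all libraries thinned to the lowest total.

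Hsd17b7 ran from 20.3 to 27.0 with a median of 25.5 normalized CPM in FGF1 mice and from 32.1 to 40.4 with a median of 33.5 in vehicle mice labelled Non-Diabetic, without overlap. Its log2 FC was -0.48 ± 0.13 (adjusted p = 0.0188 by edgeR). Lss, which had no call on Day 1, fell by 24.8% (log2 FC -0.41 ± 0.093, adjusted p = 0.0036 by edgeR). Nsdhl and Dhcr7 passed only against the vehicle mice labelled Diabetic, at -0.37 and -0.30 beside -0.21 and -0.22. Between those vehicle groups, no difference of any of the 32 genes passed. Lbr, low on Day 1, ran from 23.8 to 26.7 with a median of 24.5 in FGF1 mice and from 21.9 to 26.3 with a median of 25.4 in vehicle mice labelled Non-Diabetic. These ranges overlapped and the log2 FC was 0.00, with a 95% interval of -0.12 to 0.12. Sc5d ran from 80.3 to 92.7 with a median of 85.7 in FGF1 mice and from 89.6 to 103 with a median of 94.3 in the same vehicle group, also with overlap. Its log2 FC of -0.16 and that of Ebp at 0.06 did not pass by edgeR, nor did either gene pass against the mice labelled Diabetic. For Sc5d the exact permutation test gave p = 0.000874 against the mice labelled Non-Diabetic and 0.00035 against those labelled Diabetic.

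Of the regulators, only Insig1 was called lower by edgeR on Day 5. It ran from 88.8 to 119 with a median of 108 normalized CPM in FGF1 mice, from 135 to 166 with a median of 151 in vehicle mice labelled Non-Diabetic and from 134 to 169.5 with a median of 153 in those labelled Diabetic. The FGF1 mice lay below all vehicle mice, and Insig1 fell by 28.7% (log2 FC -0.49 ± 0.086, adjusted p = 0.00013 by edgeR). Srebf2 ran from 67.4 to 85.3 with a median of 80.3 in FGF1 mice and from 80.8 to 92.3 with a median of 84.2 in vehicle mice labelled Non-Diabetic. The ranges overlapped, and the log2 FC of -0.10 ± 0.093 did not pass (adjusted p = 0.685 by edgeR). Stard4 ran from 13.9 to 18.4 with a median of 17.1 in FGF1 mice and from 16.8 to 21.2 with a median of 19.7 in that vehicle group, again with overlap. Its log2 FC of -0.21, Srebf1 at -0.01, Insig2 at -0.03 and Scap at 0.01 did not pass either by edgeR. The exact permutation test against the mice labelled Non-Diabetic gave p = 0.0164 for Srebf2 and 0.0035 for Stard4. Against those labelled Diabetic it gave 0.235 and 0.000524.

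In fatty acid synthesis, Acly, Scd1 and Scd2 fell on Day 5. Acly ran from 271 to 306 with a median of 292 normalized CPM in FGF1 mice and from 321 to 351 with a median of 329.7 in vehicle mice labelled Non-Diabetic. It did not overlap that group but did overlap the mice labelled Diabetic, whose lowest value was 305 against an FGF1 maximum of 306. Its log2 FC was -0.19 ± 0.047 (adjusted p = 0.00697 by edgeR). Scd1 ran from 201 to 302 with a median of 267 in FGF1 mice, from 317 to 374 with a median of 344 in the first vehicle group and from 310.4 to 374 with a median of 325 in the second. All FGF1 mice were the lowest, and Scd1 fell by 26.2% (log2 FC -0.44 ± 0.090, adjusted p = 0.00105 by edgeR). Scd2 ran from 1412 to 1852 with a median of 1715 in FGF1 mice and from 1865 to 2114 with a median of 1951 in vehicle mice labelled Non-Diabetic. These did not overlap and the log2 FC was -0.26 ± 0.058 (adjusted p = 0.00331 by edgeR). Fasn was at -0.28 with no overlap of the groups but did not pass (adjusted p = 0.246 by edgeR). Me1 ran from 39.2 to 48.5 with a median of 44.5 in FGF1 mice and from 40.1 to 50.9 with a median of 47.3 in the first vehicle group. These ranges overlapped, and Me1 at -0.06, Acaca at -0.07 and Elovl6 at 0.08 did not pass.

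FGF1 replicate 4 was the lowest of its group for several of the 32 genes, and without it 12 genes were lower against the mice labelled Non-Diabetic and 15 against those labelled Diabetic (1.03% and 2.81% of all genes), where Mvk no longer passed (adjusted p = 0.0577 by edgeR). On Day 5, 4 of 7 mature oligodendrocyte markers were higher, with a summed level of 6227 to 7098 normalized CPM in FGF1 mice and 4562 to 6025 in vehicle mice labelled Non-Diabetic. Of 6 markers of oligodendrocyte precursors and newly formed oligodendrocytes 3 were higher, with sums of 296 to 378 and 178 to 209. Of 6 astrocyte markers 3 were higher, of 4 microglia markers 3, of 4 endothelial markers 1 and of 4 markers of meningeal fibroblasts 1. No ependymal, tanycyte or neuron marker passed, and the neuron sums were 1314 to 1698 and 1629.5 to 1788. None of these markers was at 0 in any library, and their part in the result was not tested.

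Between the vehicle groups of Day 5, labelled Diabetic and Non-Diabetic, 0 of the 32 genes were higher and 0 were lower by edgeR, and the same held over all genes, 0% each way. At an unadjusted p under 0.05, 1 gene, Nsdhl, was higher and 0 were lower, against 0.584% and 0.774% of all genes. DESeq2 also called 0. The median log2 FC of the 32 genes was 0.012.

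On Day 42, 0 of the 32 genes were higher and 0 were lower in FGF1 mice by edgeR, and over all genes the shares were also 0%. At an unadjusted p under 0.05 there were likewise 0 and 0, against 3.07% and 2.39% of all genes, and DESeq2 called 0. The log2 FC was positive for 17 genes and negative for 15, with a median of 0.011 against -0.012 for all genes. Msmo1 measured 185, 174, 149.6, 192 and 175 normalized CPM in FGF1 mice and 197, 158, 153, 168 and 160.2 in vehicle mice. The groups overlapped throughout, and the 95% interval of its log2 FC ran from -0.14 to 0.27. Fdft1 measured 121, 132, 129.6, 133 and 132 in FGF1 mice and 123, 125, 113, 124 and 136 in vehicle mice, with an interval of -0.07 to 0.19. Insig1 measured 150.4, 144, 113, 160.4 and 138 in FGF1 mice and 139, 142, 101, 151 and 185 in vehicle mice, with an interval of -0.24 to 0.19. Scd2 measured 2544, 2519, 2165, 2628 and 2308 in FGF1 mice and 2402, 2408, 2433, 2424 and 2008 in vehicle mice, with an interval of -0.09 to 0.21. In all 4 genes the highest mouse of either group lay above the lowest of the other. Hmgcs1 ran from 338 to 425 with a median of 392 in FGF1 mice and from 321 to 404 with a median of 367 in vehicle mice, with an interval of -0.08 to 0.27. Sqle ran from 93.8 to 107 with a median of 102 and from 91.1 to 107 with a median of 99.0, with an interval of -0.13 to 0.16. Srebf2, the sterol regulator that rose on Day 1, ran from 112 to 159 with a median of 146 and from 108 to 158 with a median of 119, with an interval of -0.13 to 0.32. Scd1 ran from 447 to 627 with a median of 556 and from 399 to 564 with a median of 536, with an interval of -0.14 to 0.31. These groups overlapped as well. By the exact permutation test the smallest p among the 17 genes was 0.159, where 5 against 5 mice can reach 0.00794. The intervals still allow changes of about the size seen on Day 5 for the more variable genes, such as Fdps at -0.77 to 0.13 and Mvd at -0.72 to 0.39.

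The change of the FGF1 effect between days was tested directly. The Day 5 effect was below the Day 1 effect for 13 of the 32 genes and above it for 1, against 14.2% and 12.4% of all genes. The median difference was -0.35 on the log2 scale against -0.021 for all genes. With an absolute difference above 0.5 as well, 7 were below and 0 above, against 8.52% and 7.28% of all genes. Among the genes that passed, the largest differences were -1.26 ± 0.13 for Msmo1 (adjusted p = 1.2e-10 by edgeR), -0.88 ± 0.20 for Hsd17b7, -0.75 ± 0.090 for Sqle and -0.71 ± 0.11 for Cyp51. Srebf2 differed by -0.57 ± 0.14 (adjusted p = 0.0018 by edgeR). The single gene that passed with a positive difference was Lbr, at 0.38 ± 0.085 (adjusted p = 0.000666 by edgeR). Of the 13 genes below, Idi1 was lost without vehicle replicate 1 or 4 of Day 1, at an adjusted p of 0.0681 to 0.115 by edgeR, and Dhcr7 without replicate 1 or 2, at 0.0518 to 0.0845. Since each day was prepared separately, a difference between days cannot be told apart from one between preparations.

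Of the 32 genes, 18 had a positive log2 FC on Day 1 and a negative one on Day 5 (22.3% of all genes did), 10 were negative on both, 3 positive on both, and Lbr was lower on Day 1 and level on Day 5. Those comparisons share no library. Hmgcs1, Sqle, Cyp51, Msmo1, Hsd17b7 and Acly passed in opposite directions, against 0.12% of all genes. Of these, Hmgcs1 and Hsd17b7 lost the Day 1 call with that day fitted alone. With all libraries thinned to the lowest total, Msmo1 kept its Day 5 call. Hmgcs1, Sqle, Cyp51, Hsd17b7 and Acly lost theirs. Cyp51 also lost it without the 2 Day 5 FGF1 libraries of highest total. Insig1, Scd1 and Scd2 fell on both days, against 0.844% of all genes. For these last 3 the difference between days was -0.01, 0.03 and 0.07, and none passed. Their 95% intervals were -0.28 to 0.26, -0.25 to 0.31 and -0.11 to 0.25. In 12 genes, among them Srebf1, Scap, Fasn and Acaca, neither Day 1 nor Day 5 against the vehicle mice labelled Non-Diabetic passed, and of these Mvk, Idi1, Nsdhl and Dhcr7 passed on Day 5 against those labelled Diabetic.

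**Figure D5:**
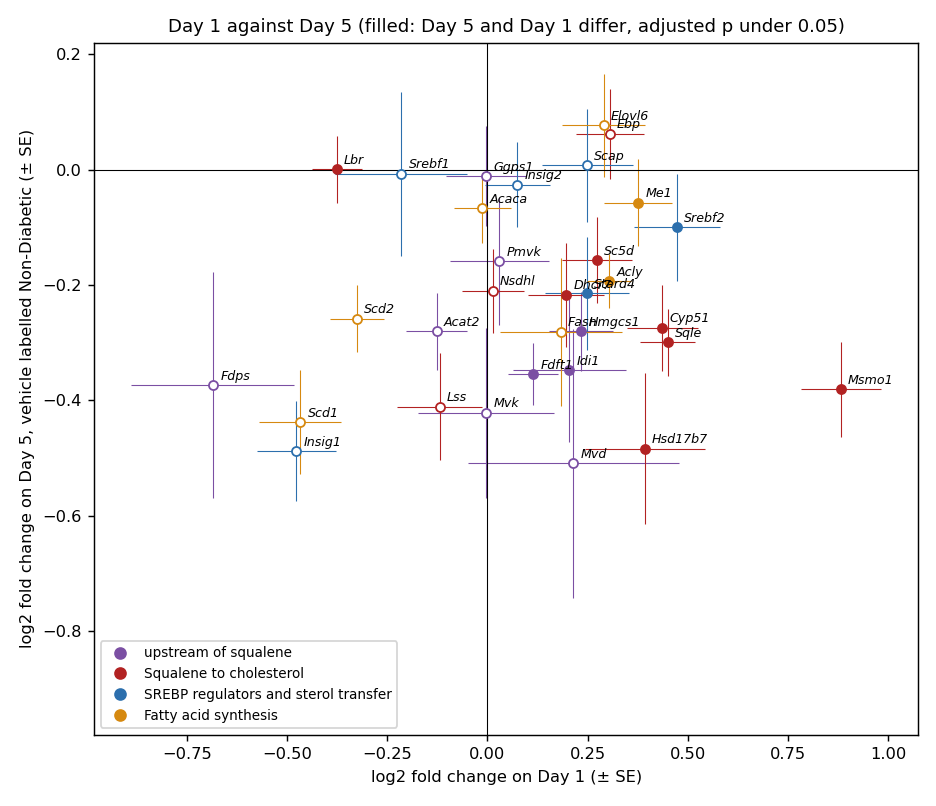
Log2 FC (± SE) of FGF1 against vehicle labelled Non-Diabetic on Day 1 (horizontal) and Day 5 (vertical) for the 32 genes, filled where the difference between days passed an adjusted p of 0.05. Msmo1 lies farthest to the right at 0.88 and -0.38, and Insig1, Scd1 and Scd2 lie below 0 on both axes.

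From Day 5 to Day 42 the FGF1 effect was higher on the later day for 1 gene, Fdft1, by 0.41 ± 0.085 (adjusted p = 0.0056 by edgeR), and was lower for 0, against 0.295% and 0.647% of all genes. At an unadjusted p under 0.05 there were 14 and 0, against 4.64% and 5.34%, and DESeq2 called 3 and 0, against 0.581% and 0.746%. With an absolute difference above 0.5 as well, it was 0 and 0, against 0.232% and 0.485%. The median difference of the 32 genes was 0.25 against -0.013 for all genes, and 26 of 32 were positive. Leaving out FGF1 replicate 3 of Day 42 gave 6 genes, against 0.626% of all genes, and leaving out vehicle replicate 5 gave 3, against 0.408%.

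Whether genes of the pathway varied together from mouse to mouse was asked for 8 pairs over the 47 mice, after the mean of each group was removed (permutation within groups, Benjamini-Hochberg over the 8 pairs). Hmgcs1 and Sqle had Pearson's r of 0.654 (adjusted permutation p = 0.000373) and Spearman's rho of 0.617 (adjusted permutation p = 0.00024). Within Days 1, 5 and 42 r was 0.798, 0.394 and 0.441, and r was 0.559 without the 2 mice farthest from the median of Hmgcs1. Hmgcs1 and Scd2 had r of 0.649 (adjusted permutation p = 0.00016) and rho of 0.634, with 0.725, 0.583 and 0.775 within days and 0.66 without 2 mice. Those signs were the same on every day. Hmgcs1 and Idi1 had r of 0.625 and rho of 0.593, with 0.693, 0.370 and 0.721 within days and 0.515 without 2 mice (adjusted permutation p = 0.00028 and 0.000267). Hmgcs1 and Insig1 had r of 0.540 and rho of 0.583, with 0.861, 0.348 and 0.204 within days and 0.461 without 2 mice (adjusted permutation p = 0.00154 and 0.00028).

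Other pairs changed sign between days, so no pooled relation can be stated for them. Srebf1 and Scd1 had r of -0.554, 0.50 and -0.860 within Days 1, 5 and 42. Their pooled r was -0.409 and rho -0.402 (adjusted permutation p = 0.0276 and 0.0216). Hmgcs1 and Fasn had r of -0.270, 0.701 and -0.751 within days (pooled r -0.244 and rho -0.184, adjusted permutation p = 0.346 and 0.387). Against the myelin marker Mbp, Hmgcs1 had -0.393, 0.651 and -0.314, and Scd2 had -0.0854, 0.455 and -0.345 on these days, and neither pooled r passed (adjusted permutation p = 0.489 and 0.887).

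Further genes of sterol and fatty acid metabolism were counted from lists by function. In a list of other sterol and isoprenoid genes, 25 of 26 were in the table, and 6 rose and 3 fell on Day 1, against 23.4% and 21.6% of all genes. The share that rose was near that background and the share that fell below it. The largest changes were in Rabggta, which encodes a subunit of an enzyme that attaches geranylgeranyl groups to Rab proteins, at 0.91 ± 0.093, Aacs, the acetoacetyl-CoA synthetase, at 0.59 ± 0.16, and Cyb5r3, a cytochrome b5 reductase, at 0.57 ± 0.10. On Day 5, 1 fell against the vehicle mice labelled Non-Diabetic, and 3 fell against those labelled Diabetic, against 1.4% and 3.42% of all genes. The gene common to both was Acss2, the cytosolic acetyl-CoA synthetase, at -0.32 ± 0.063 and -0.31 ± 0.063.

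In a list for sterol storage, oxidation and efflux, 15 of 16 genes were in the table, and 5 rose and 3 fell on Day 1, beside the same shares of all genes. Cyp27a1, a sterol hydroxylase, was at -1.51 ± 0.15, Nr1h3, the oxysterol receptor LXR alpha, at 0.74 ± 0.17, and Lipa, the lysosomal lipase of cholesterol esters, at 0.58 ± 0.080. On Day 5, 3 rose against the vehicle mice labelled Non-Diabetic, and 6 rose against those labelled Diabetic, where 3.25% and 5.79% of all genes did. Abca1, the exporter of cholesterol to lipoproteins, rose by 0.71 ± 0.094 against the first group (adjusted p = 5.71e-07 by edgeR) and by 0.61 ± 0.093 against the second. Npc2, which hands cholesterol out of the lysosome, rose by 0.24 ± 0.053 against the mice labelled Non-Diabetic and by 0.25 ± 0.053 against those labelled Diabetic, and Lipa by 0.23 ± 0.070 and 0.24 ± 0.070. The other 3 that passed against the mice labelled Diabetic were Nr1h3 at 0.51 ± 0.16, Mylip, a ubiquitin ligase of lipoprotein receptors, at 0.36 ± 0.081, and Soat1, which makes cholesterol esters, at 0.26 ± 0.076.

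In a list of other fatty acid genes, all 30 were in the table, and 8 rose and 10 fell on Day 1, against 23.4% and 21.6% of all genes, so the share that rose was near the background. Thrsp, a regulator of lipogenesis, was at -1.29 ± 0.13, Elovl1, an elongase of very long chains, at 1.12 ± 0.10, and Acsl3, a long-chain acyl-CoA synthetase, at -0.72 ± 0.089. On Day 5, 1 fell against the vehicle mice labelled Non-Diabetic, namely Fads1, a desaturase of polyunsaturated fatty acids, at -0.29 ± 0.051, against 1.4% of all genes. Against those labelled Diabetic Fads1 fell as well, at -0.23 ± 0.051, and Mlxipl, the carbohydrate-responsive factor ChREBP, rose by 0.57 ± 0.19 (adjusted p = 0.0462 by edgeR). There 1 of the 30 fell and 1 rose, near or below the 3.42% and 5.79% of all genes that did. On Day 42, 0 genes of these 3 lists were called in either direction by edgeR, and 0% of all genes were. At an unadjusted p under 0.05, 1 gene, Lpin1, was lower and 0 were higher, against 2.39% and 3.07% of all genes. Lpin1 was at -0.16 ± 0.078 (adjusted p = 0.913 by edgeR). Mylip, Soat1, Mlxipl and Lpin1 are named because their lists had few calls, after their values were seen.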

How the data were processed

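RNA was isolated from the hypothalamus of 47 mice, 1 library per mouse, with a stranded mRNA kit. The authors deposited raw counts per gene for 14221 genes, whole numbers that were not normalized. The sources name STAR for alignment and GRCh38 as the build, although the organism is mouse, and the counting program is not given in the sources used here. Quantile normalization, which the methods mention, is not in the deposited counts.

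Counts were scaled with TMM and tested with edgeR 4.0.16 (quasi-likelihood F test, R 4.3.3) in 1 fit of 7 groups, with Benjamini-Hochberg adjustment over 14221 genes and no covariate. filterByExpr removed 0 genes. Genes were called at an adjusted p under 0.05, and the study's absolute log2 fold change above 0.5 was counted beside it. The study's own tool, DESeq2 1.42.0, and limma 3.58.1 served as alternatives. Log2 values carry a pseudocount of 0.5. Groups came from the treatment labels, which name FGF1 or vehicle, although the tissue label shared by all 47 mice also names FGF19. The labels give 2 vehicle groups on Day 5 where the paper describes 1 of the same size, without saying which. The paper describes its ob/ob mice as diabetic and left out mice below its glucose limit. The label Non-Diabetic differs from that description, and the sources used here do not explain it. The labels name no cultures or litters, so p-values measure the spread between these mice. The fit pools that spread over all 47 libraries, although it differed by day. For the genes described here the median SD of log2 values was 0.257 in vehicle and 0.191 in FGF1 mice of Day 1. In the groups of Day 5 it ran from 0.0917 to 0.0949. The pooled p-values can therefore be too small for Day 1 and too large for Day 5. The script was tested on simulated data. Total counts of 1243280 to 47082403 per library limit the precision of genes with few counts, such as Fdps. No 2 libraries of a group were identical (149 pairs).

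Values by mouse are given for genes called in at least 2 of Day 1, Day 5 against vehicle labelled Non-Diabetic, and the difference between these days, and for the gene with the largest change of each role on Days 1 and 5, which made 17 genes. Single genes were also compared with two-sided exact permutation tests (scipy 1.17.1), 68 in all. Of the lists by function, the 3 genes with the largest changes among those called were named. The genes and lists were chosen with earlier results of these data known. Of the alternatives, 1, leaving out FGF1 replicate 4 of Day 5, was chosen after seeing the data. Promoters came from a RefSeq table (GRCm38.p6) and gene positions and exon lengths from GENCODE vM21. Single-cell data of the series were not used here.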

Additional observations from a re-analysis of the deposited data

Results flagged for a closer look

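In 11 of 119 groups of 4 to 10 mice tested among the genes given by mouse, the highest or lowest mouse lay farther from the others than Dixon's 95% limit allows, where chance gives about 1 in 20. FGF1 replicate 4 of Day 5 held 5 of the 11. In normalized CPM it measured 175 for Hmgcs1 (others 192 to 209.6), 79.9 for Fdft1 (others 93.6 to 107), 71.4 for Sqle (others 79.1 to 87.4), 78.0 for Msmo1 (others 95.5 to 109.7) and 67.4 for Srebf2 (others 75.8 to 85.3). It was the lowest of its 9 mice for all 5 genes.

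The other 6 were spread over 6 mice. Fdft1 was low in FGF1 replicate 1 of Day 42, at 121 (others 129.6 to 133). Lbr was high in vehicle replicate 2 of Day 1, at 36.8 (others 30.4 to 30.8). Hsd17b7 was low in vehicle replicate 3 of Day 42, at 23.5 (others 35.7 to 42.2), and high in the Day 5 vehicle replicate 1 labelled Non-Diabetic, at 40.4 (others 32.1 to 34.4). Acly was high in vehicle replicate 2 of Day 42, at 294 (others 238 to 251), and Scd2 was low in vehicle replicate 5 of Day 42, at 2008 (others 2402 to 2433).

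The FGF1 effect differed between days in 15 tests of the difference itself by edgeR. On the log2 scale, Day 5 minus Day 1 was -0.51 for Hmgcs1, -0.55 for Idi1, -0.47 for Fdft1, -0.75 for Sqle, -0.71 for Cyp51, -1.26 for Msmo1, -0.88 for Hsd17b7, -0.43 for Sc5d and -0.41 for Dhcr7. It was -0.57 for Srebf2, -0.46 for Stard4, -0.50 for Acly and -0.43 for Me1, and 0.38 for Lbr. Day 42 minus Day 5 was 0.41 for Fdft1.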

How the results depend on the processing

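No paired analysis was possible because each library came from a different mouse and the labels name no pairs. The replicate numbers used here number the mice within each group and are not part of the labels. Under every alternative run, 0 of the 32 genes were called on Day 42 or between the Day 5 vehicle groups, and none of the called genes reversed. Requiring an absolute log2 FC above 0.5 left 1 higher and 1 lower on Day 1, 0 lower on Day 5 against Non-Diabetic and 2 against Diabetic, 7 lower and 0 higher for Day 5 minus Day 1, and 0 for Day 42 minus Day 5. Thinning all libraries to 1243280 counts left 8 higher and 3 lower on Day 1 (11.9% and 11.2% of the 12487 genes then tested), 6 and 10 lower on Day 5 (0.256% and 0.585%), 7 lower and 0 higher for Day 5 minus Day 1 (4.87% and 5.25%), and 0 for Day 42 minus Day 5 (0.152% higher). Lower on Day 5 against Non-Diabetic were 21 with the day fitted alone and 20 with limma's sample weights (9.13% and 11.6% of all genes). Day 42 minus Day 5 gave 3 with DESeq2, 3 with quantile normalization, 8 with sample weights and 7 with both Day 5 vehicle groups merged, where 0.581%, 0.162%, 0.33% and 0.584% of all genes were higher, and 1 to 6 when 1 mouse of Day 42 was left out. Leaving out 1 vehicle mouse of Day 1 gave 8 to 15 higher. The causes were not tested. A minimum of 10 counts in every library left 10973 genes and 30 of the 32, without Fdps and Mvd.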
